A study of Homo sapiens with 9 samples.

Results

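HCT116 is a human colorectal carcinoma line, studied here as 3 untreated lines with 3 RNA libraries each. HUWE1-P is the parent line. In both edited lines a CRISPR repair template replaced part of the endogenous HUWE1 gene with coding sequence and added a gene for resistance to blasticidin. The template encodes the catalytic cysteine again in HUWE1-WT, the editing control, and a serine there in HUWE1-CS. Edited cells were selected with puromycin and blasticidin and grown from single cells. HUWE1-P lacks this insert, so that HUWE1-CS and HUWE1-P cells differ by more than the exchanged residue. HUWE1 is a ubiquitin ligase, and the exchange to serine removes the residue that carries ubiquitin in its catalytic domain. The genes of the proteasome were chosen by symbol alone, as every PSMA, PSMB, PSMC, PSMD, PSME and PSMG gene of the count table together with PSMF1, ADRM1, POMP and SEM1, which gave 47 genes of 11350. Of these, 14 encode the constitutive core subunits, 1 an immunoproteasome subunit, 6 the ATPases, 4 other subunits of the base, 9 the lid, 3 chaperones of the base, 4 activators, 5 core assembly factors and 1 an inhibitor. PSMA8, PSMB8, PSMB9 and PSMB11 were not analysed here.

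The proteasome degrades proteins tagged with ubiquitin. Its core particle is a barrel of stacked rings of alpha (PSMA) and beta (PSMB) subunits with the proteolytic sites inside, and its regulatory particle, built from a base with a ring of ATPases (PSMC) and a lid (PSMD), binds, unfolds and feeds in the ubiquitylated substrate. Alternative activators of the PSME group cap the same core and open its gate without using ATP, and PSME1 and PSME2, which form the PA28 heteroheptamer, are known as interferon-induced genes that act in the making of peptides for major histocompatibility complex (MHC) class I. Subunit genes are usually transcribed in concert, and the transcription factor NFE2L1 raises them together when proteasome activity is inhibited.

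Libraries held between 1610984 and 2060349 counts, at which 3 counts correspond to 1.45 to 1.86 CPM (library-scaled counts after TMM normalization), a floor that covers counting error alone. The proteasome genes were well above it, from 20 counts in 1 library for PSMG4 to 1264 for PSMD2, and the mean over all libraries ran from 15.7 CPM for PSMG4 to 625 CPM for PSMD2. HUWE1 itself lay at 522 to 561 CPM in HUWE1-P, 453 to 498 CPM in HUWE1-WT and 323 to 345 CPM in HUWE1-CS libraries, and fell in HUWE1-CS cells against both other lines, by 0.69 and 0.48 on the log2 scale (edgeR, adjusted p = 1.06e-15 and 4.68e-09). Counts per gene do not show the exchanged codon, so that they do not test the labels. Of the epithelial markers 9 of 10 were measured, and their summed level was 4411 to 4553 CPM in HUWE1-P, 4436 to 4847 CPM in HUWE1-WT and 4076 to 4456 CPM in HUWE1-CS libraries, a sum to which KRT8 contributed most. Single markers moved, since 6 of the 9 passed in each HUWE1-CS comparison (66.7%, beside 17.0% and 15.5% of all genes). EPCAM, CDH1, CLDN7 and ELF3 rose, with log2 fold changes of 0.28, 0.53, 0.53 and 0.40 against HUWE1-P cells, and the keratins KRT8 and KRT18 fell by 0.32 and 0.30. Of the markers of fibroblasts and immune cells 1 each was measured, COL1A1 at 8.71 to 25.6 CPM and CD68 at 6.39 to 14.5 CPM, and 0 of 3 endothelial markers. COL1A1 fell in HUWE1-CS cells (log2 fold change -0.96), and the part of these marker changes or of any other cell type in the results was not tested. In RNA from whole cultures, fewer cells expressing a gene and less RNA of it per cell cannot be told apart. Whether the libraries of a line came from 1 clone or several is not given in the sources used here, and p-values measure only the spread between these libraries.

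The proteasome did not move as a unit in HUWE1-CS cells. Against HUWE1-P cells 8 of the 47 genes (17.0%) passed an FDR of at most 0.01 (edgeR quasi-likelihood test, adjusted over all 11350 genes), the same share as among all genes (17.0%). The activator genes PSME1 and PSME2 rose, where 8.46% of all genes were called higher. PSMC2, PSMD1, PSMD3, PSMD11, PSMD13 and PSME4 fell, where 8.58% of all genes were called lower. Against HUWE1-WT cells 9 genes (19.1%) passed, beside 15.5% of all genes. Again PSME1 and PSME2 rose (7.42% of all genes were called higher), and PSMC1, PSMD1, PSMD3, PSMD5, PSMD13, PSME4 and PSMG1 fell (8.08% of all genes were called lower). Both comparisons share the HUWE1-CS libraries. With DESeq2 the same 2 genes rose in each comparison, and 4 fell against HUWE1-P and 3 against HUWE1-WT cells, where DESeq2 called 4.95% and 4.42% of all genes higher and 4.63% and 4.37% lower. The median log2 fold change of the 47 genes was -0.05 against HUWE1-P and -0.06 against HUWE1-WT cells, beside -0.01 and -0.00 for all genes.

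Between the control lines 0 of 47 genes passed the test with edgeR, DESeq2 or limma-voom, and the lowest adjusted p with edgeR was 0.756. At an unadjusted p under 0.05, edgeR named 4 genes, DESeq2 1 and limma-voom 4, where they named 5.54%, 1.59% and 5.52% of all genes. At an FDR of at most 0.01, 0.0617% of all genes were called in that comparison, 0.00881% higher and 0.0529% lower in HUWE1-WT cells. The log2 fold changes of proteasome genes between HUWE1-WT and HUWE1-P cells ran from -0.21 for PSMD7 to 0.34 for PSMG4.

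The same libraries were also ranked, which is not separate evidence and matched the calls only in part. All 3 HUWE1-CS libraries were above all 6 control libraries for 4 of the 47 genes, PSME1, PSME2, PSMD10 and PSMF1, where 12.9% of all genes did so. They were below all 6 for 8 genes, PSMB10, PSMC2, PSMD1, PSMD3, PSMD7, PSMD11, PSMD13 and PSME4, where 13.4% of all genes did so. For the other 35 genes the HUWE1-CS and control libraries overlapped, among them PSMC1, PSMD5 and PSMG1, which were called against HUWE1-WT cells. PSMD10, PSMF1, PSMB10 and PSMD7 did not overlap but were not called in either comparison.

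**Figure D1:**
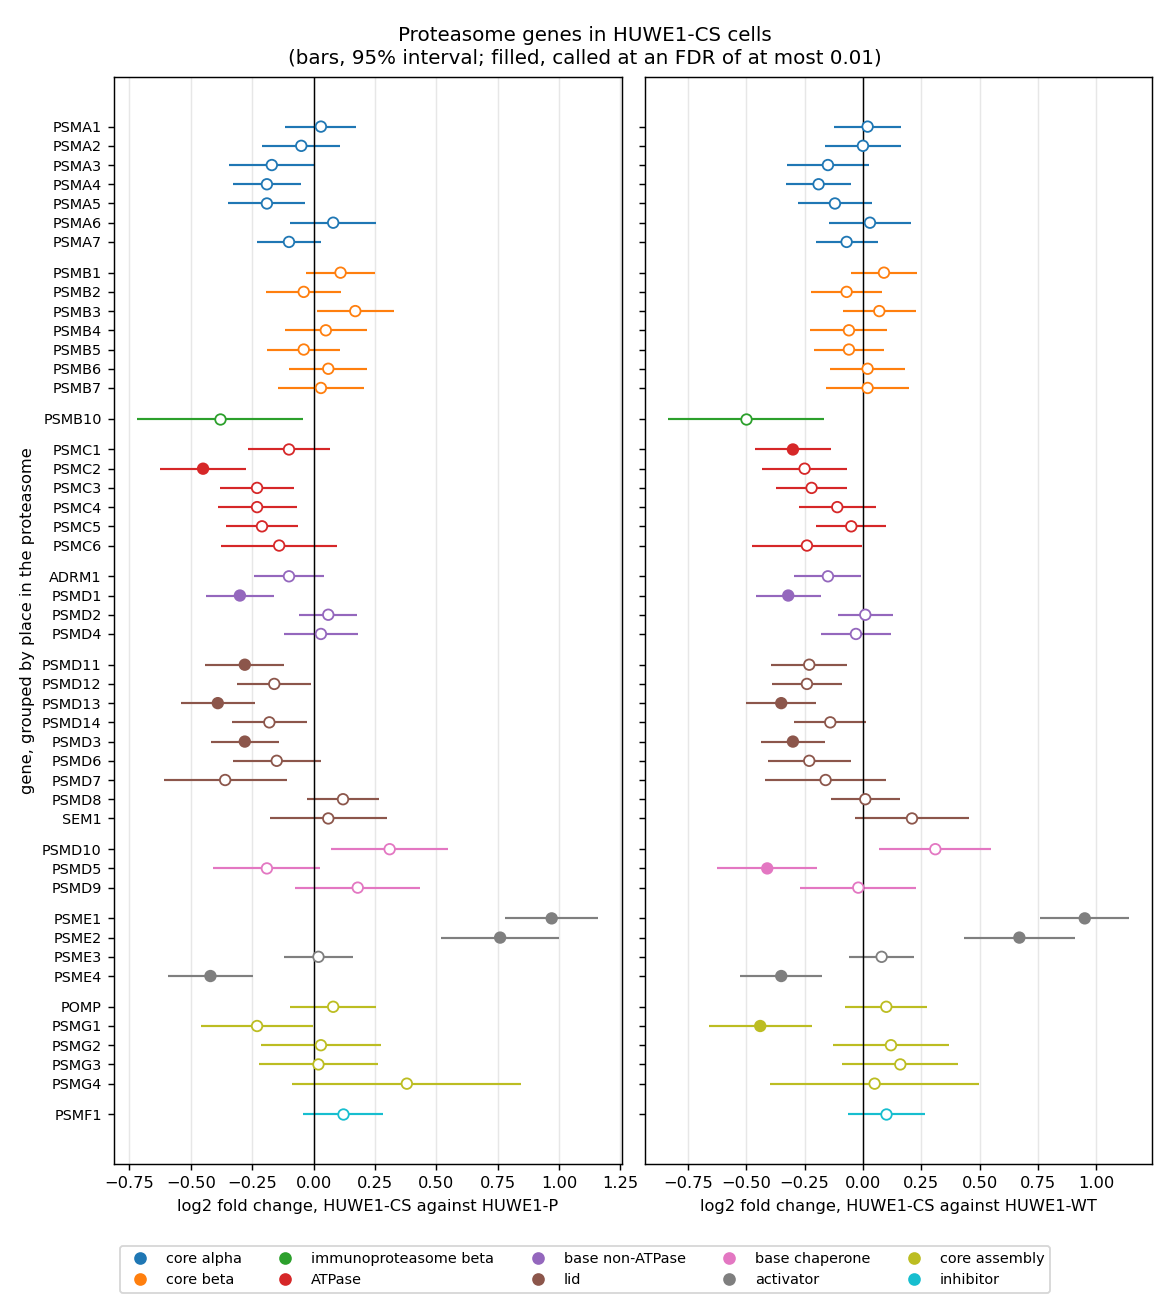
Log2 fold change of each of the 47 proteasome genes in HUWE1-CS against HUWE1-P cells (left) and against HUWE1-WT cells (right), by place in the proteasome, with 95% intervals from the edgeR fit; filled points passed an FDR of at most 0.01. PSME1 and PSME2 stand to the right at 0.97 and 0.76 (left panel), PSME4 and the called base and lid genes to the left between -0.45 and -0.28, and the 14 constitutive core genes between -0.19 and 0.17.

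The activators gave the widest range of any proteasome group. PSME1 encodes PA28alpha and lies on chromosome 14 at chr14:24605372-24608176 (plus strand, hg19). Its level was 83.8, 82.5 and 74.7 CPM in the HUWE1-P libraries, 80.5, 92.2 and 69.8 CPM in the HUWE1-WT libraries and 157, 154 and 159 CPM in the HUWE1-CS libraries. All HUWE1-CS libraries lay far above all controls, and they lay closer to each other than the libraries of either control line did. The level was 1.96-fold that of HUWE1-P cells (log2 fold change 0.97, SE 0.0972, 95% interval 0.78 to 1.16, adjusted p = 2.46e-14 with edgeR) and 1.93-fold that of HUWE1-WT cells (0.95, SE 0.0976, adjusted p = 7.65e-14).

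PSME2, which encodes the partner subunit PA28beta, is its neighbour on the opposite strand at chr14:24612571-24616779, with 4394 bases between the annotated genes. Its level was 44.7, 64 and 46.3 CPM in HUWE1-P, 49.8, 61.1 and 54.1 CPM in HUWE1-WT and 80.1, 87.9 and 94.1 CPM in HUWE1-CS libraries. The groups did not overlap, although HUWE1-P replicate 2 stood above the other HUWE1-P libraries. PSME2 rose 1.69-fold against HUWE1-P cells (log2 fold change 0.76, SE 0.123, edgeR adjusted p = 4.61e-07) and 1.59-fold against HUWE1-WT cells (0.67, SE 0.122, adjusted p = 9.1e-06). Both genes passed in each of the 21 alternative fits of both comparisons, with log2 fold changes of 0.82 to 1.07 for PSME1 and 0.52 to 0.94 for PSME2. The gene EMC9 overlaps an exon of PSME1 and RNF31 one of PSME2 on the other strand, and 6 pseudogenes of PSME2 are annotated. The library kit is not stated to keep the strand, so that reads in those overlaps cannot be told apart. EMC9 lay at 17.6, 21.8 and 24.5 CPM on average in the parental, HUWE1-WT and HUWE1-CS lines, and RNF31 at 75, 72.6 and 87 CPM, and neither passed the test (log2 fold change against HUWE1-P cells 0.47 and 0.21, edgeR adjusted p = 0.0748 and 0.149).

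PSME3 encodes PA28gamma, a nuclear activator that forms a ring of its own. It lay at 254, 258 and 277 CPM in HUWE1-P, 256, 244 and 262 CPM in HUWE1-WT and 275, 246 and 282 CPM in HUWE1-CS libraries. The groups overlapped, and against HUWE1-P cells the log2 fold change had an interval of -0.12 to 0.16. PSME4, at chr2:54091206-54198130 on the minus strand, encodes PA200, a large nuclear activator that caps the core as a single chain. Its level was 155, 146 and 155 CPM in HUWE1-P, 144, 146 and 144 CPM in HUWE1-WT and 116, 104 and 121 CPM in HUWE1-CS libraries. All HUWE1-CS libraries were below all controls, and PSME4 fell against HUWE1-P (log2 fold change -0.42, SE 0.0888, edgeR adjusted p = 9.09e-05) and HUWE1-WT cells (-0.35, SE 0.09, adjusted p = 0.00165). After a trend of log2 fold change with transcript length was removed, the values were -0.28 and -0.24 and the adjusted p 0.0102 and 0.0316. Without HUWE1-CS replicate 2 the adjusted p against HUWE1-WT cells was 0.0248, and with DESeq2 it was 0.0179. The activators thus moved in different directions, and their summed level in HUWE1-CS libraries was 627, 592 and 656 CPM beside 530 to 552 CPM in the controls.

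**Figure D2:**
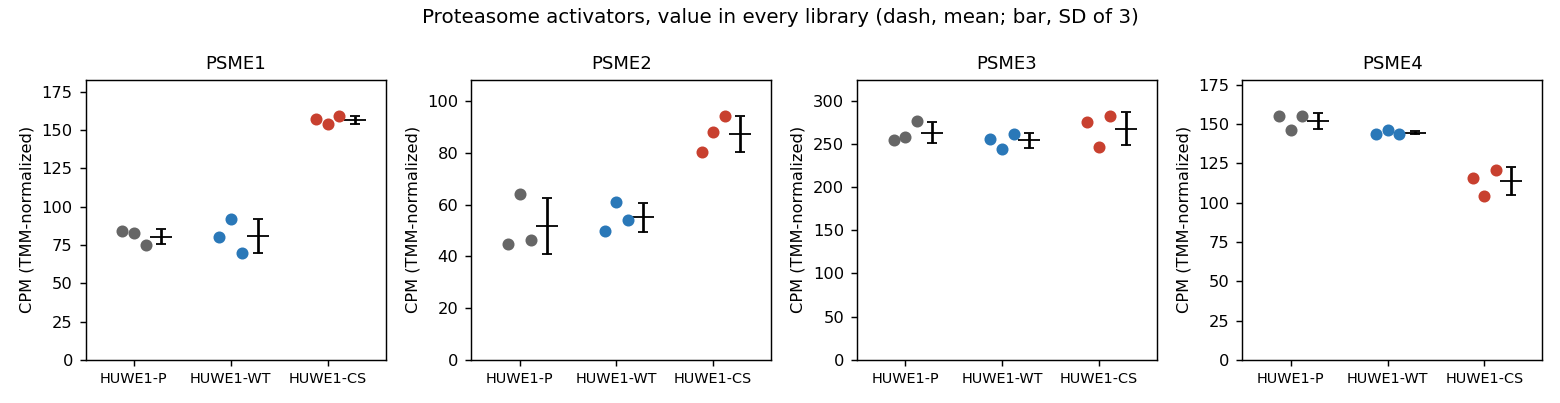
Level of the 4 activator genes in every library (points; TMM-normalized CPM on an axis from 0) with the mean and SD of 3 libraries beside each line. HUWE1-CS libraries lie at 154 to 159 CPM for PSME1 and 80.1 to 94.1 CPM for PSME2, above all controls, overlap with the controls for PSME3, and lie at 104 to 121 CPM for PSME4, below all controls.

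Set beside the 14 core genes, the summed level of PSME1 and PSME2 was 4.44, 5.26 and 4.29% of the core sum in HUWE1-P, 4.75, 5.11 and 4.4% in HUWE1-WT and 8.8, 8.37 and 9.15% in HUWE1-CS libraries. The share was higher in each HUWE1-CS library than in any control. Per kilobase of transcript, PSME1 was at 1.06 to 1.54 times the level of PSME2 in controls and at 1.39 to 1.61 times in HUWE1-CS libraries, and these ranges overlap.

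Start regions of 4 genes are shown because PSME1 and PSME2 rose together while PSME4 and the lid gene PSMD3 fell. Each runs 5′ to 3′ along the gene, from 200 bases before to 20 bases after the start in RefSeq, and was placed on hg19 by its single exact match, PSME1 at chr14:24605203-24605422 (plus), PSME2 at chr14:24615800-24616019 (minus), PSME4 at chr2:54198111-54198330 (minus) and PSMD3 at chr17:38136860-38137079 (plus). Capitals mark matches, on either strand, to an interferon response motif (GAAANNGAAA) or an antioxidant response motif (TGACNNNGC), the second of which is also the kind of motif that NFE2L1 binds.
PSME1: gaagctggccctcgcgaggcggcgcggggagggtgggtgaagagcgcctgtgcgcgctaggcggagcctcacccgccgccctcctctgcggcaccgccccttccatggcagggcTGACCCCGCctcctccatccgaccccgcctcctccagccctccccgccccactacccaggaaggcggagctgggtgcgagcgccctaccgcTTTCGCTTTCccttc
PSME2: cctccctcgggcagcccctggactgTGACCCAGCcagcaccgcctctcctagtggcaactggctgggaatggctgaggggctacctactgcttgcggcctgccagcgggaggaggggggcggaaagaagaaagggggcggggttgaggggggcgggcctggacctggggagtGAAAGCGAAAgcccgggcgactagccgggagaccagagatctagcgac
PSME4: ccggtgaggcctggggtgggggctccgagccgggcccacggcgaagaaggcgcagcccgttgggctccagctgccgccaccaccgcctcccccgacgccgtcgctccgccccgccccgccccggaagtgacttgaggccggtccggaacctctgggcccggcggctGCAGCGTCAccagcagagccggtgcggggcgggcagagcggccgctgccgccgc
PSMD3: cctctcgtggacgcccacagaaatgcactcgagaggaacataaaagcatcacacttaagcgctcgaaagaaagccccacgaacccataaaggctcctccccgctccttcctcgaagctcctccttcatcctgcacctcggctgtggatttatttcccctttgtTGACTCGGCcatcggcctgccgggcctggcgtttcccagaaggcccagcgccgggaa
The interferon response motif was found once each in PSME1 (6 bases after the start, on the other strand) and PSME2 (28 bases before it) and was absent from the stretches of PSME4 and PSMD3. The antioxidant response motif was found in all 4, beginning 86 bases before the start of PSME1, 175 before that of PSME2, 34 before that of PSME4 and 37 before that of PSMD3. These motifs do not overlap each other. In windows of 300 bases (250 before to 50 after the start), 6 of the 41 proteasome genes with a window held the first motif (14.6%), beside 3.42% of 9041 tested genes and 3.57% of 35116 RefSeq windows. Apart from PSME1 and PSME2 these were PSMA4, PSMB4, PSMB10 and PSMG4, none of which passed the test. The second motif was in 16 of 41 proteasome genes (39.0%), beside 19.5% of tested genes and 13.3% of windows. It was in 7 of the 11 genes called in either comparison, both risen genes among them, and in 9 of the 30 uncalled genes. The fallen genes PSMC1, PSMC2, PSMD11 and PSMD13 held no match to it. A match says only that the letters are there.

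Within 100 kb of PSME1 and PSME2, 13 other genes were tested. Of these PCK2, the mitochondrial phosphoenolpyruvate carboxykinase, rose (log2 fold change 1.01 against HUWE1-P cells, edgeR adjusted p = 1.07e-06), as did GMPR2, a guanosine monophosphate reductase (0.37, adjusted p = 0.00457), and both also rose against HUWE1-WT cells. Among all genes 8.46% and 7.42% were called higher in these comparisons. Over the 13 genes the log2 fold change against HUWE1-P cells had a median of 0.23, from -0.37 to 1.01, beside a median of -0.01 for all genes. The nearest genes that do not overlap PSME1 or PSME2, DCAF11 and IRF9, had values of 0.05 and -0.37 that did not pass the test (edgeR adjusted p = 0.814 and 0.55). IRF9, a transcription factor of interferon signalling, was low, at 6.8, 7.4 and 5.21 CPM on average.

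**Figure D3:**
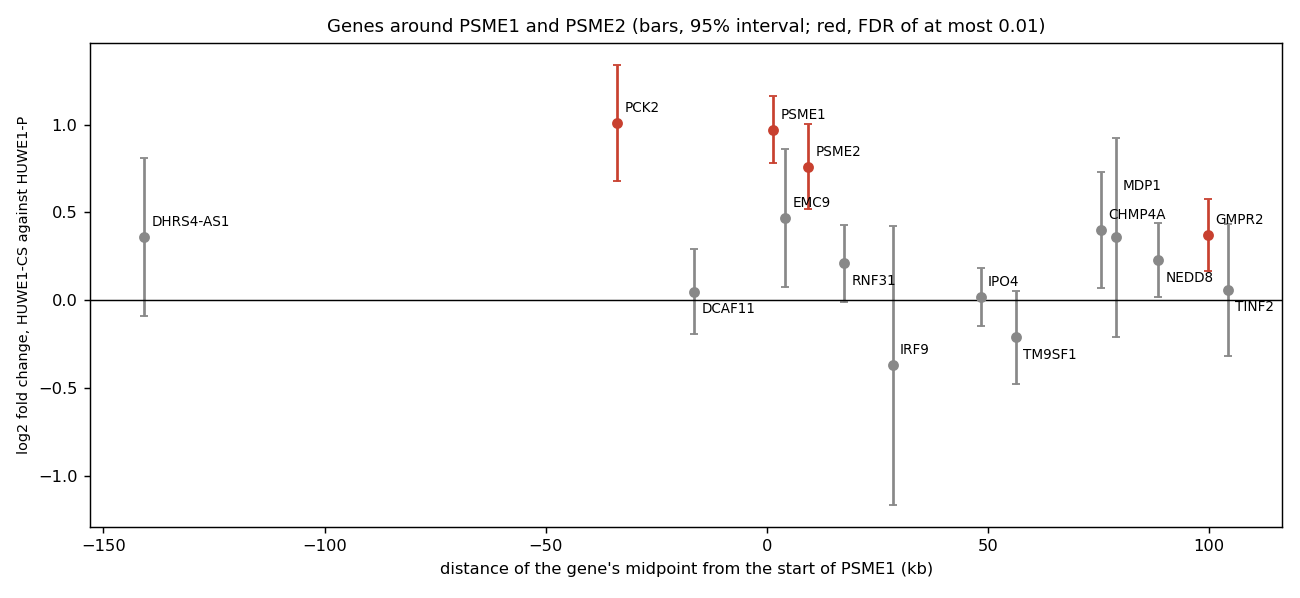
Log2 fold change in HUWE1-CS against HUWE1-P cells (vertical axis, with 95% intervals) of each tested gene within 100 kb of PSME1 and PSME2, by distance of the gene's midpoint from the start of PSME1 in kb (horizontal axis); red, FDR of at most 0.01. PSME1, PSME2, PCK2 and GMPR2 passed, and the other 11 genes did not.

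In the core particle none of the 14 constitutive subunit genes passed the test in any comparison with edgeR, DESeq2 or limma-voom. At an unadjusted p under 0.05, edgeR named 3 of them against HUWE1-P cells and 1 against HUWE1-WT cells, beside 36.1% and 35.0% of all genes. All 14 had overlapping groups, and their log2 fold changes against HUWE1-P cells ran from -0.19 for PSMA4 and PSMA5 to 0.17 for PSMB3, with a median of -0.00. The summed level was 2894, 2787 and 2817 CPM in HUWE1-P, 2743, 3000 and 2814 CPM in HUWE1-WT and 2689, 2895 and 2766 CPM in HUWE1-CS libraries. With the length trend removed, PSMA3 and PSMA7 passed the test as lower against HUWE1-P cells, and the median was -0.12. On a scale per kilobase of transcript, which depends on the annotated transcript chosen, core levels over all libraries ran from 43.9 CPM for PSMB2 to 386 CPM for PSMA7.

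Among the alpha subunits, which form the outer rings and the gate, PSMA4 had the smallest p. It lay at 274, 294 and 311 CPM in HUWE1-P, 293, 302 and 286 CPM in HUWE1-WT and 235, 277 and 262 CPM in HUWE1-CS libraries. One HUWE1-CS library lay within the controls, and the log2 fold change was -0.19 in both comparisons (edgeR adjusted p = 0.0417 and 0.0449). Among the beta subunits PSMB3, which has no proteolytic site, had the smallest p. It lay at 209, 201 and 191 CPM in HUWE1-P, 191, 248 and 202 CPM in HUWE1-WT and 213, 247 and 212 CPM in HUWE1-CS libraries, with a log2 fold change of 0.17 against HUWE1-P cells that did not pass (adjusted p = 0.12).

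None of the catalytic beta subunits passed the test with edgeR, at adjusted p of 0.666 or more against HUWE1-P cells. PSMB5, which carries the chymotrypsin-like site, lay at 206, 200 and 190 CPM in HUWE1-P, 195, 202 and 205 CPM in HUWE1-WT and 195, 193 and 190 CPM in HUWE1-CS libraries. PSMB6, with the caspase-like site, lay at 159, 164 and 177 CPM, 164, 172 and 178 CPM, and 178, 184 and 159 CPM in the same order. PSMB7, with the trypsin-like site, lay at 135, 123 and 127 CPM, 123, 138 and 128 CPM, and 126, 139 and 129 CPM. For all 3 the groups overlapped, and the 95% intervals of the log2 fold change against HUWE1-P cells were -0.19 to 0.11, -0.10 to 0.22 and -0.14 to 0.21.

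PSMB10, at chr16:67968409-67970767 on the minus strand, encodes the interferon-induced subunit that takes the place of PSMB7 in the immunoproteasome. It lay at 32.9, 33.1 and 32.8 CPM in HUWE1-P, 33.6, 36.5 and 37.2 CPM in HUWE1-WT and 29.7, 22.7 and 23.8 CPM in HUWE1-CS libraries. All HUWE1-CS libraries were below all controls, opposite to PSME1 and PSME2. The log2 fold change of -0.38 against HUWE1-P and -0.50 against HUWE1-WT cells did not pass (SE 0.172 and 0.17, edgeR adjusted p = 0.0961 and 0.0223), and with the length trend removed it passed in the second comparison.

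In the regulatory particle genes fell and none rose, and whether it differed from the core was not tested. Of its 19 genes 5 fell against HUWE1-P cells (26.3%, beside 8.58% of all genes called lower) and 4 against HUWE1-WT cells (21.1%, beside 8.08%), and 0 rose. Log2 fold changes were below 0 for 15 and 16 of the 19, beside 50.9% and 50.0% of all genes, with medians of -0.18 and -0.22. Its summed level was 4176, 4030 and 4047 CPM in HUWE1-P, 3971, 4169 and 4158 CPM in HUWE1-WT and 3644, 3710 and 3679 CPM in HUWE1-CS libraries, so that the HUWE1-CS libraries were below all controls. The ratio of this sum to that of the core was 1.39 to 1.48 in control and 1.28 to 1.36 in HUWE1-CS libraries. With DESeq2, 3 genes of the regulatory particle fell in each comparison, and with the length trend removed 9 and 6 did, where 7.80% and 7.47% of all genes were called lower. With that trend removed the medians were -0.27 and -0.22, beside -0.12 and -0.09 for the 14 constitutive core genes.

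In the ATPase ring, which unfolds substrates, all 6 genes had log2 fold changes below 0 in both comparisons, with medians of -0.22 and -0.23. In each comparison 1 of 6 passed (16.7%, beside 17.0% and 15.5% of all genes), and it was not the same gene. PSMC2, at chr7:102969017-103010793 on the plus strand, lay at 154, 144 and 154 CPM in HUWE1-P, 132, 127 and 135 CPM in HUWE1-WT and 108, 104 and 118 CPM in HUWE1-CS libraries. The 3 lines did not overlap, with HUWE1-WT in the middle. PSMC2 fell against HUWE1-P cells (log2 fold change -0.45, SE 0.0897, edgeR adjusted p = 3.4e-05), whereas the value of -0.25 against HUWE1-WT cells and that of -0.20 for HUWE1-WT against HUWE1-P cells did not pass (adjusted p = 0.0344 and 0.823). Its exons overlap those of PMPCB on the same strand, a gene at 96.5, 96.9 and 108 CPM on average. PSMC1 lay at 147, 168 and 151 CPM in HUWE1-P, 168, 187 and 181 CPM in HUWE1-WT and 141, 155 and 139 CPM in HUWE1-CS libraries. It overlapped between HUWE1-CS and HUWE1-P cells and fell against HUWE1-WT cells alone (log2 fold change -0.30, adjusted p = 0.00373), a call that was lost in 6 of 21 alternatives, among them the omission of HUWE1-WT replicate 2 (-0.26, adjusted p = 0.0344) or 3 (-0.29, 0.0195) and of HUWE1-CS replicate 1 (-0.28, 0.0234) or 3 (-0.26, 0.0288). There are 13 annotated pseudogenes of PSMC1, whose reads cannot be told apart where the sequences are identical. PSMC3, PSMC4, PSMC5 and PSMC6 had values of -0.23, -0.23, -0.21 and -0.14 against HUWE1-P cells that did not pass. The summed ATPase level was 1106, 1018 and 1058 CPM in HUWE1-P, 1012, 1033 and 1031 CPM in HUWE1-WT and 875, 915 and 921 CPM in HUWE1-CS libraries, again below all controls.

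Of the 4 other base genes only PSMD1 fell (25.0%, beside 8.58% and 8.08% of all genes called lower). PSMD1 encodes a large scaffold of the base and lies at chr2:231921559-232037830 on the plus strand. Its level was 331, 305 and 304 CPM in HUWE1-P, 301, 330 and 317 CPM in HUWE1-WT and 235, 251 and 275 CPM in HUWE1-CS libraries. All HUWE1-CS libraries were below all controls, with log2 fold changes of -0.30 against HUWE1-P (SE 0.0706, edgeR adjusted p = 0.000485) and -0.32 against HUWE1-WT cells (SE 0.0707, adjusted p = 0.000252). Without HUWE1-P replicate 1 or HUWE1-CS replicate 1 the first was -0.26 or -0.25 (adjusted p = 0.0113 or 0.0149). The partner scaffold PSMD2, the proteasome gene with the highest CPM when length is not taken into account, had a log2 fold change of 0.06, and the ubiquitin receptors PSMD4 and ADRM1 had 0.03 and -0.10, and none of the 3 passed.

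Of the 9 lid genes, 3 fell against HUWE1-P and 2 against HUWE1-WT cells (33.3% and 22.2%, beside 8.58% and 8.08% of all genes called lower). With DESeq2, 1 and 2 fell, where 4.63% and 4.37% of all genes were called lower. PSMD13, a structural lid subunit at chr11:236966-252984 on the plus strand, lay at 276, 258 and 243 CPM in HUWE1-P, 245, 270 and 237 CPM in HUWE1-WT and 191, 220 and 181 CPM in HUWE1-CS libraries. The groups did not overlap, and PSMD13 fell against HUWE1-P (log2 fold change -0.39, SE 0.0764, edgeR adjusted p = 3.03e-05) and HUWE1-WT cells (-0.35, SE 0.077, adjusted p = 0.000272). Without HUWE1-CS replicate 3 the second was -0.28 (adjusted p = 0.0103). PSMD3, another structural lid subunit at chr17:38137060-38154212 on the plus strand, lay at 308, 317 and 296 CPM in HUWE1-P, 294, 336 and 303 CPM in HUWE1-WT and 252, 241 and 264 CPM in HUWE1-CS libraries. It fell by 0.28 (adjusted p = 0.00114) and 0.30 (adjusted p = 0.000457) on the log2 scale, with no overlap of the groups. Without HUWE1-P replicate 2 or HUWE1-CS replicate 2 the first adjusted p was 0.0107 or 0.0134, with DESeq2 it was 0.0103, and without HUWE1-WT replicate 2 the second was 0.0186.

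PSMD11, a lid subunit that clamps the lid to the core, was at 181 ± 4.37 CPM in HUWE1-P, 175 ± 1.68 CPM in HUWE1-WT and 149 ± 13 CPM in HUWE1-CS cells (SD, n = 3). It passed against HUWE1-P cells alone (log2 fold change -0.28, edgeR adjusted p = 0.00551), and 8 of 21 alternatives ended that call, among them the omission of HUWE1-P replicate 1 or 3 (-0.27 each, adjusted p = 0.0247 and 0.0268) and of HUWE1-CS replicate 2 or 3 (-0.21 and -0.28, adjusted p = 0.0725 and 0.0165). PSMD14, the deubiquitylase of the lid, and its partner PSMD7 had values of -0.18 and -0.36 against HUWE1-P cells that did not pass (adjusted p = 0.0736 and 0.0256). PSMD6 and PSMD12 had -0.15 and -0.16, and PSMD8 and SEM1, a small acidic lid protein, 0.12 and 0.06.

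**Figure D4:**
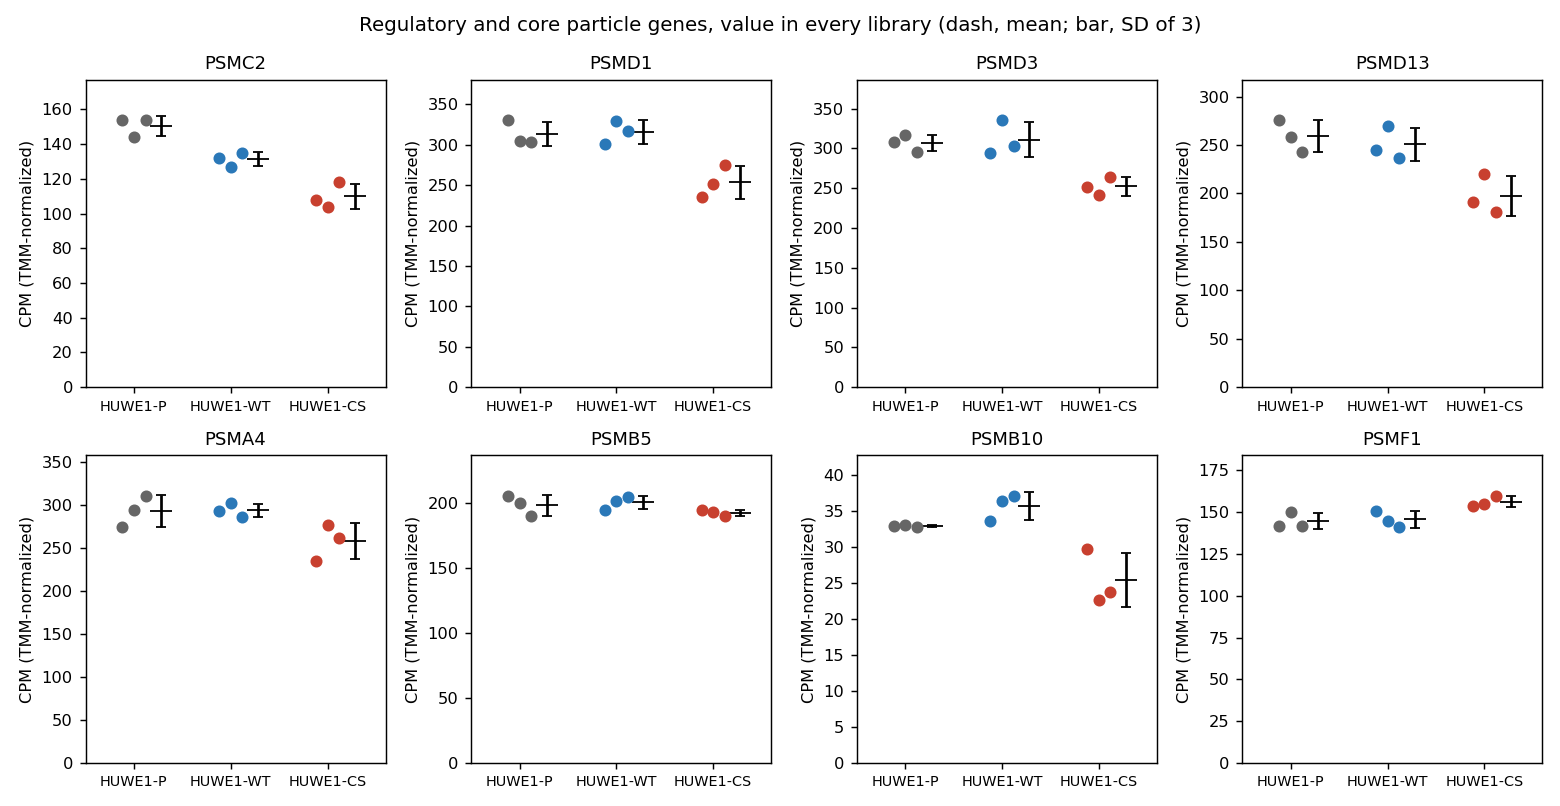
Level of 8 proteasome genes in every library (points; TMM-normalized CPM on axes from 0), with the mean and SD of 3 libraries beside each line. In HUWE1-CS libraries PSMC2, PSMD1, PSMD3, PSMD13 and PSMB10 lie below all controls, PSMA4 and PSMB5 overlap with them, and the inhibitor PSMF1 lies above them.

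The chaperones that assemble the base did not move together. PSMD10 (gankyrin) lay at 56.5, 60.1 and 64.1 CPM in HUWE1-P, 62, 57.3 and 61.6 CPM in HUWE1-WT and 89.6, 66.9 and 68.5 CPM in HUWE1-CS libraries. All HUWE1-CS libraries were above all controls, with HUWE1-CS replicate 1 highest, and the log2 fold change of 0.31 in both comparisons did not pass (edgeR adjusted p = 0.0481 and 0.0485). Without HUWE1-CS replicate 1 the log2 fold changes were 0.16 and 0.17. PSMD5 fell against HUWE1-WT cells (log2 fold change -0.41, edgeR adjusted p = 0.00274), while its value of -0.19 against HUWE1-P cells did not pass. Without HUWE1-WT replicate 2 or 3 or HUWE1-CS replicate 2 the first adjusted p was 0.0122, 0.0136 or 0.0188, and with DESeq2 it was 0.0308. PSMD9 had values of 0.18 and -0.02.

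Of the 5 factors that assemble the core, 0 passed against HUWE1-P cells with edgeR, DESeq2 or limma-voom, where edgeR called 17.0% of all genes. At an unadjusted p under 0.05, edgeR named 0 of them and limma-voom 1, where edgeR named 36.1% of all genes. PSMG1, which with PSMG2 guides the assembly of the alpha ring, lay at 81.3, 74.6 and 82.4 CPM in HUWE1-P, 80.5, 94.3 and 102 CPM in HUWE1-WT and 59.3, 68.6 and 75.5 CPM in HUWE1-CS libraries. HUWE1-CS and HUWE1-P libraries overlapped slightly (75.5 and 74.6 CPM), and PSMG1 fell against HUWE1-WT cells (log2 fold change -0.44, SE 0.113, edgeR adjusted p = 0.00166). Without HUWE1-WT replicate 3 or HUWE1-CS replicate 1 that value was -0.37 or -0.36 (adjusted p = 0.0304 or 0.0312), and DESeq2 gave 0.0236. PSMG2, PSMG3, PSMG4 and POMP, the chaperone of the beta ring, had values of 0.03, 0.02, 0.38 and 0.08 against HUWE1-P cells. PSMF1 encodes PI31, a proteasome inhibitor and adaptor. It lay at 142, 150 and 142 CPM in HUWE1-P, 151, 145 and 141 CPM in HUWE1-WT and 154, 155 and 160 CPM in HUWE1-CS libraries, without overlap but with a log2 fold change of only 0.12 (adjusted p = 0.324), and with the length trend removed it was called higher against HUWE1-P but not against HUWE1-WT cells.

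**Figure D5:**
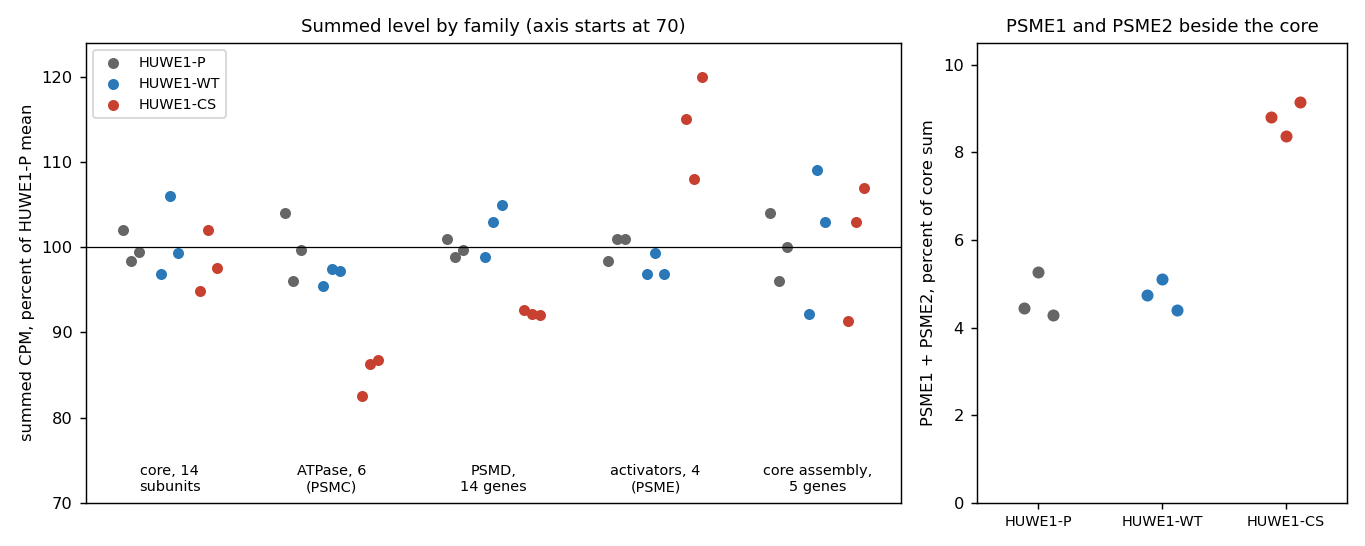
Left, summed CPM of each family in every library as a percentage of the HUWE1-P mean (vertical axis from 70%); right, summed CPM of PSME1 and PSME2 as a percentage of the sum of the 14 core genes (axis from 0). In HUWE1-CS libraries the ATPase and PSMD sums lie below and the activator sum above all controls, the core and core assembly sums overlap with them, and the right panel reads 8.37 to 9.15% beside 4.29 to 5.26%.

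Fold changes drifted with transcript length, and the part of this drift in the results was not tested beyond its removal. In 5 equal groups of the tested genes by length, the median log2 fold change of HUWE1-CS against HUWE1-P cells went from 0.13 in the shortest to -0.118 in the longest. Proteasome transcripts are short, with a median of 1470 bases, and PSME1 and PSME2 are among the shortest of them, with 965 and 793 bases, whereas PSME4 has 7250 bases. With the trend removed 3 proteasome genes were called higher (beside 9.07% of all genes) and 11 lower (beside 7.80% of all genes) against HUWE1-P cells. Against HUWE1-WT cells 2 were called higher (beside 8.33%) and 9 lower (beside 7.47%).

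Genes that work with the proteasome were read from lists of general knowledge, drawn up with earlier results of these data known. The shares of these lists that were called therefore describe the lists and do not test them against all genes. Of 4 genes of ubiquitin and its activation, 2 rose and 0 fell against each control line (50.0%, beside 8.46% and 7.42% of all genes called higher). UBB, which encodes polyubiquitin, went from 1332 CPM on average in HUWE1-P to 1758 CPM in HUWE1-CS cells (log2 fold change 0.40, edgeR adjusted p = 3.56e-09), and RPS27A, a fusion of ubiquitin with a ribosomal protein, from 389 to 458 CPM (0.24, adjusted p = 0.00424). With DESeq2, 1 of the 2 passed in each comparison. The activating enzymes UBA1 and UBA6 did not pass. Of 10 proteins that associate with the proteasome 1 rose and 0 fell against HUWE1-P cells, where edgeR called 8.46% of all genes higher and 8.58% lower. The risen gene was PITHD1 (log2 fold change 0.52, edgeR adjusted p = 7.68e-05). Against HUWE1-WT cells 1 rose and 1 fell, where 7.42% of all genes were called higher and 8.08% lower. PITHD1 rose again, and USP14, a proteasome-bound deubiquitylase, fell with edgeR (-0.36, adjusted p = 0.00584) but did not pass with DESeq2.

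Of 9 genes on the NFE2L1 route, NFE2L1 rose against HUWE1-P cells (284 to 348 CPM, log2 fold change 0.29, edgeR adjusted p = 0.000426) and 0.20 against HUWE1-WT cells did not pass (adjusted p = 0.0183). Against HUWE1-P and HUWE1-WT cells 11.1% and 22.2% of the list were called, beside 17.0% and 15.5% of all genes. NGLY1 and SEL1L, which act in the processing of NFE2L1 and in the degradation of proteins from the endoplasmic reticulum, fell against HUWE1-WT cells (-0.80 and -0.42, adjusted p = 0.00154 and 0.00231), and with DESeq2 neither passed. None of 5 ubiquitin shuttle genes and none of 7 genes of the p97 segregase complex passed with edgeR, DESeq2 or limma-voom. At an unadjusted p under 0.05 edgeR named 2 and 1 of them against HUWE1-P and 3 and 2 against HUWE1-WT cells, where it named 36.1% and 35.0% of all genes.

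The genes of MHC class I antigen processing, in which PSME1, PSME2 and PSMB10 take part, moved in both directions. Of 15 genes 2 rose and 2 fell against HUWE1-P cells (26.7% called, beside 17.0% of all genes). Against HUWE1-WT cells 2 rose and 3 fell (33.3%, beside 15.5%). With DESeq2, 2 rose and 1 fell in the second of these comparisons. HLA-C (log2 fold change 0.54, edgeR adjusted p = 1.32e-09) and HLA-E (0.49, adjusted p = 8.33e-07) rose, although reads of such closely similar paralogs may be shared out between them. The peptide transporter subunit TAP2 (-0.60, adjusted p = 3.86e-06) and the light chain B2M (-0.35, adjusted p = 0.000157) fell, and TAP1, the partner of TAP2, had a value of 0.43 that did not pass (adjusted p = 0.0127). NLRC5, a transactivator of class I genes, had -0.74 against HUWE1-P cells (adjusted p = 0.136) and fell against HUWE1-WT cells (-1.32, adjusted p = 0.0018). IRF1 and IRF2 did not pass.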

How the data were processed

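The authors mapped single-end reads to hg19 with STAR 2.5.4 (per the labels, bcl2fastq 2.20 and edgeR 3.26.8 were also used) and deposited counts per gene, without normalization, for 11350 genes in 9 libraries. The counting tool, its annotation and its use of strand are not given in the sources used here. Tables of the authors' own comparisons (log2 fold change, mean log2 CPM, F, p and FDR) were not used.

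Counts were normalized by TMM and tested with edgeR 4.0.16 in R 4.3.3 (glmQLFit with the earlier estimator, glmQLFTest, line as the only term, all 9 libraries in 1 fit, no gene removed). P-values were adjusted by Benjamini-Hochberg over 11350 genes and called at an FDR of at most 0.01. The common biological coefficient of variation was 4.77%. Replicates differed by more than sampling noise, with chi-square per degree of freedom of 1.16 to 1.65. The procedure was tested on simulated data. DESeq2 1.42.0 and limma 3.58.1 served as alternatives, and Python 3.11.15, pandas 2.3.3, NumPy 2.4.6 and matplotlib 3.10.9 for tables and figures. Each SE was derived as the size of the log2 fold change divided by the square root of F from the edgeR test. Intervals are 95% normal intervals from that SE.

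The genes and lists were chosen with earlier results of these data known. Some genes of the lists are not reported here. Values in every library are given for genes called in both HUWE1-CS comparisons, the smallest p of each family, PSMB5, PSMB6, PSMB7 and PSMB10, and, chosen after its values were seen, PSMC1 and PSME3. Genes near PSME1 and PSME2 were also looked up after their values were seen. Positions came from GENCODE on GRCh37, where 47 of 47 proteasome genes could be placed, and start regions from RefSeq (GRCh38), for 41 genes.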

Additional observations from a re-analysis of the deposited data

How the results depend on the processing

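PSME1 and PSME2 were called higher in both HUWE1-CS comparisons under all 21 alternatives, and no proteasome gene was called between the control lines under any. Genes called lower were 6 against HUWE1-P and 7 against HUWE1-WT cells (beside 8.58% and 8.08% of all genes). With the length trend removed 11 fell against HUWE1-P cells (beside 7.80% of all genes). At an FDR of 0.05, 11 and 13 fell (beside 13.6% and 12.6% of all genes), with the further demand of a log2 fold change of 0.5 in size, 0 and 0 (beside 5.61% and 5.39%), and with DESeq2 4 and 3 (beside 4.63% and 4.37%). Omitting each library in turn gave 4 to 6 and 4 to 9, the 4 against HUWE1-WT cells without HUWE1-WT replicate 2 or 3. Shares of all genes are not given here for the fits that omit a library. Several of these calls lay near the threshold. PSMC2 and PSMD13 against HUWE1-P cells and PSMD1 against HUWE1-WT cells were called lower in all 21 alternative fits.

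Over all alternative fits 15 of the 47 genes changed sign against HUWE1-P cells in at least 1 of them, 13 of these with the length trend removed, and 13 against HUWE1-WT cells, 9 of these with the length trend removed. None of them was called in the comparison concerned, in edgeR as reported or where the sign changed, and their log2 fold changes as reported ran from -0.05 to 0.17 and from -0.07 to 0.09. Among genes whose values are given in every library these were PSMB3, PSMB6, PSMB7 and PSME3. With the length trend removed the first 3 were -0.011, -0.116 and -0.119 against HUWE1-P and -0.082, -0.123 and -0.106 against HUWE1-WT cells. With total counts PSMB6 and PSMB7 were -0.007 and -0.011 against HUWE1-WT cells. Omitting each library in turn gave -0.002 to 0.069 for PSMB7 against HUWE1-P cells, and against HUWE1-WT cells -0.009 to 0.198 for PSMB3, -0.018 to 0.088 for PSMB6 and -0.022 to 0.070 for PSMB7.

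Deviations of libraries from different lines correlated weakly, at -0.0195 to 0.0579 for the same replicate number and -0.0653 to 0.0333 for different numbers. Whether replicate numbers pair the libraries is not settled by these values. With the replicate block the counts were 2 higher and 6 lower against HUWE1-P and 2 and 8 against HUWE1-WT cells, and with a GC correction added 2 and 6, and 2 and 7. Shares of all genes called in these fits are not given here, so that the counts show only how far the calls held. The causes were not tested.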
